A study of Mus musculus with 12 samples.

Results

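The 119 cells described here are fibroblasts of native mouse trachea picked by their own transcripts. They were the barcodes of the native-trachea library with 500 or more genes and 20% or less mitochondrial UMIs (unique molecular identifiers, the counts of single mRNA molecules) that met 4 conditions. The UMIs of Col1a1, Col1a2, Col3a1 and Dcn summed to 10 or more. Those of Inmt, Ces1d, Gria1 and Col13a1, called marker UMIs below, summed to 5 or more. Pi16 and Ptprc had no UMI. The cells are called Inmt-Ces1d cells. They were 119 of 907 native fibroblasts (13.1%, exact 95% interval 10.99 to 15.5) and of 4156 kept cells (2.86%, 2.38 to 3.42). All values that chose them are given as description.

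The series profiled mouse cells by 10x Chromium 3' sequencing (chemistry version 3) in 4 samples each of grafted trachea, native trachea and spleen. The title asks about mononuclear phagocytes in the airway fibrosis that follows transplantation. The labels call the trachea cells mesenchymal progenitors and state no strain, sex, age, treatment or time after grafting. The 4 samples of a source were deposited as 1 matrix whose barcodes all carry the same suffix, so each source is 1 pooled library. The comparison set was the 290 native fibroblasts under 5 marker UMIs, called low-marker fibroblasts, of which 153 held Pi16 and 137 did not. With 1 pooled library per source no difference was tested, every interval below is a 95% interval that covers counting error only, and the spread between animals is unknown.

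Fibroblasts of the lung and airways fall into groups with different places. Alveolar fibroblasts lie against the gas-exchanging epithelium and help to maintain it, and in the mouse they are marked by genes such as Tcf21, Npnt, Itga8 and Wnt2. Adventitial fibroblasts lie in the sleeves around vessels and large airways, carry Pi16, Cd34 and Ly6a, and are regarded as a reserve from which other fibroblasts can arise. Inmt encodes a methyltransferase that methylates tryptamine and other amines. Ces1d is a carboxylesterase that splits drug and lipid esters, Gria1 a subunit of AMPA glutamate receptors, and Col13a1 a collagen that spans the cell membrane.

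The rule's genes lie on different chromosomes (build mm10, GENCODE M21). Inmt spans chr6:55170626-55175043 on the minus strand, Ces1d chr8:93166068-93197838 on the minus strand, Gria1 chr11:57011387-57330244 on the plus strand and Col13a1 chr10:61838236-61979108 on the minus strand. Upstream sequences are shown for Inmt and Col13a1, which chose the cells, and for Cxcl14, the chemokine gene that divided them. They are from RefSeq (build GRCm38.p6), 5′ to 3′ on the minus strand, with TATAAA in capitals. Each is the part of the 200 bases before the RefSeq start that lies outside the GENCODE gene.
Inmt, chr6:55175044-55175190: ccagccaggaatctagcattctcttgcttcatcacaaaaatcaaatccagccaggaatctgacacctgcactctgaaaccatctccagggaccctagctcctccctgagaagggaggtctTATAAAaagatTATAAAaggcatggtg
Col13a1, chr10:61979109-61979308: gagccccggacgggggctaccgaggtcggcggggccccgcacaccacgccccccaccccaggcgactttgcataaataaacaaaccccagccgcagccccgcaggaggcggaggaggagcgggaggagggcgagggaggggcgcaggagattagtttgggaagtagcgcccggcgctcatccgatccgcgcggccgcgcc
Cxcl14, chr13:56296552-56296751: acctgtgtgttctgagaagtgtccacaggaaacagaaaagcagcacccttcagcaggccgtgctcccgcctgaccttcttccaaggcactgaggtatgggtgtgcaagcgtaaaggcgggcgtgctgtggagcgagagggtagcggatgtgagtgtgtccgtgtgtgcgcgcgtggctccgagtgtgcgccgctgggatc

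The letters TATAAA, searched on both strands, stood 2 times before Inmt and in neither of the other 200-base windows, and 9.96% of 32851 RefSeq promoters held them. The E-box CAGCTG, letters that basic helix-loop-helix factors such as Tcf21 can bind, stood 1 time in the Inmt window, in bases not printed here, and in 10.9% of all promoters. A match of letters is a description and not a binding site.

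The Inmt-Ces1d cells were the smaller, Pi16-free part of a larger group of cells with the same 4 genes. Of the 617 native fibroblasts with 5 or more marker UMIs, 498 held Pi16 and were removed by the rule, which is 80.7% (77.4 to 83.8). They are called Pi16 marker cells below. The share of fibroblasts with Pi16 was 31.8% of the 107 cells with 0 marker UMIs (23.1 to 41.5), 77.4% of the 257 cells with 10 to 19 (71.8 to 82.4) and 92.3% of the 78 cells with 30 or more (84.0 to 97.1). Depth was also higher in the upper bins, with medians of 5702, 12214 and 12864 UMIs in these 3 bins. After each cell was thinned to 3000 UMIs the shares were 24.4%, 63.0% and 78.2%. Pi16, an adventitial gene, was thus found more often, and not less often, where the marker sum was high. Another 55 cells with 5 or more marker UMIs were removed because they held Ptprc, the leukocyte gene.

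**Figure D1:**
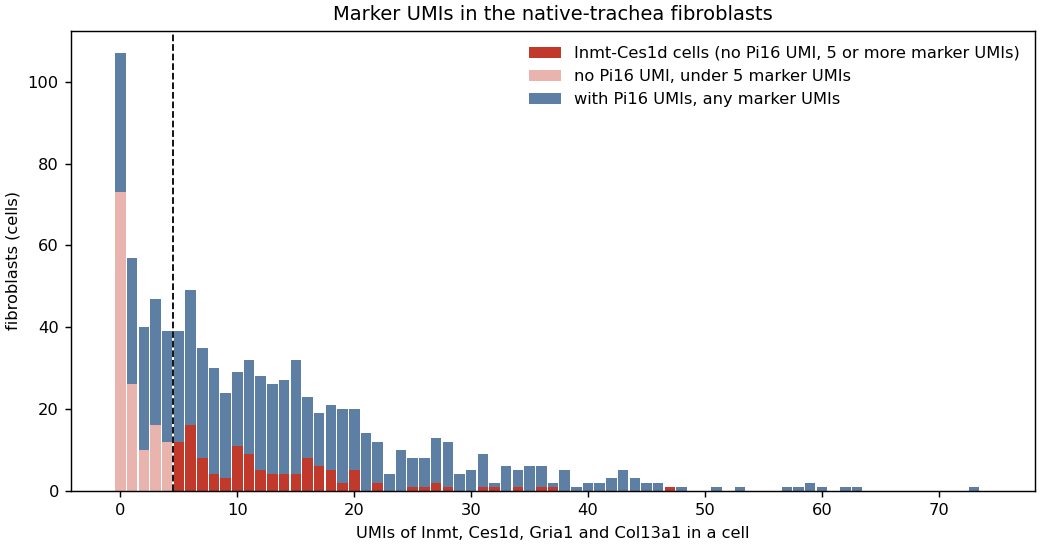
Number of native fibroblasts (vertical axis) at each sum of Inmt, Ces1d, Gria1 and Col13a1 UMIs (horizontal axis), split by Pi16 and with the threshold of 5 dashed. The 119 Inmt-Ces1d cells lie at 5 to 47 marker UMIs, among the 498 Pi16 cells on the same side of the threshold.

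Within the 119 cells the marker sum ran from 5 over a median of 11 to 47. Ces1d had a UMI in 96 cells, Gria1 in 88, Col13a1 in 87 and Inmt in 81. All 4 genes were found in 40 cells, 3 of them in 44, 2 in 25 and a single one in 10. Most of the cells therefore held several of the rule's genes, and no gene was in all of them.

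Levels are given in CPM, the UMIs of a gene per 1000000 UMIs summed over a set of cells. Those of the rule's genes follow from the choice. Inmt stood at 356 CPM in the Inmt-Ces1d cells, 444 CPM in the Pi16 marker cells and 40.04 CPM in the low-marker fibroblasts. Ces1d stood at 359 CPM in the Inmt-Ces1d cells, 590 CPM in the Pi16 marker cells and 72.7 CPM in the low-marker fibroblasts. Gria1 stood at 199.6 CPM in the Inmt-Ces1d cells, 207.5 CPM in the Pi16 marker cells and 52.0 CPM in the low-marker fibroblasts, and Col13a1 at 256, 194 and 34.97 CPM in these 3 sets. Inmt and Ces1d were thus lower, and Col13a1 higher, in the Inmt-Ces1d cells than in the Pi16 marker cells.

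Each gene was also measured in cells chosen without it. Among native fibroblasts with neither Pi16 nor Ptprc, the 91 to 103 cells with 5 or more UMIs of the other 3 genes were compared with the rest. Inmt was 2.52-fold higher (2.08 to 3.097) in the cells so chosen, Gria1 2.53-fold (1.96 to 3.33), Col13a1 2.28-fold (1.83 to 2.87) and Ces1d 1.60-fold (1.34 to 1.91). Each gene was thus higher in the cells chosen by the other 3 than in the rest, with Ces1d the least so. Depth was not equalised between these cells. The rest included low-marker fibroblasts, in which the choice keeps each of the 4 genes under 5 UMIs. It also included Inmt-Ces1d cells that reached 5 marker UMIs only with the gene left out. The part of either in the ratios was not tested, so the ratios cannot decide whether the genes go together. Within 115 thinned Inmt-Ces1d cells without epithelial RNA, no pair of the 4 genes rose together clearly. Pearson correlations (log scale) ran from -0.24 for Inmt and Gria1 to 0.06 for Inmt and Ces1d. The sum of the same genes chose these 115 cells, so the correlations cannot decide whether the genes go together.

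The threshold of 5 marker UMIs lies within a continuous range. Among the cells without Pi16, 28 lay just inside it with 5 or 6 marker UMIs and 28 just outside with 3 or 4. Cxcl14 stood at 2546 CPM just inside and 341 CPM just outside. Limch1 stood at 384 CPM just inside and 126 CPM just outside, Hsd11b1 at 585 CPM inside and 256 CPM outside, and Npnt at 114 CPM inside and 148 CPM outside. Cxcl14 did not follow the marker sum steadily. It stood at 597 CPM in the 15 cells with 7 to 9 marker UMIs, 2476 CPM in the 58 with 10 to 19, 3207 CPM in the 12 with 20 to 29, and 170.1 CPM in the 6 with 30 or more. Nor did Limch1, which stood at 141, 401, 542 and 179 CPM in the same bins. The last of these bins included a cell of 50840 UMIs, 127 of them epithelial, and a cell of 26858 UMIs, 89 of them epithelial. Neither held a Cxcl14 UMI, and their part in the low values of that bin was not tested.

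Some of the 119 cells carried RNA of another cell type. Of 225 UMIs of 7 general epithelial genes (Epcam, Krt8, Krt18, Krt19, Cdh1, Cldn3 and Cldn7), 222 (98.7%) lay in 3 cells, and these cells also held 1182 of the 1329 UMIs of 10 airway secretory genes. The other 116 cells had 3 epithelial UMIs in all, with Epcam, Krt8, Cdh1 and Cldn3 at 0. Values without the 3 cells are given as those of the 116 cells, a choice made after the data were seen.

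Depth differed too. The Inmt-Ces1d cells had a median of 11389 UMIs and 3070 genes, against 7036.5 UMIs and 2464 genes in the low-marker fibroblasts. The 3 libraries held 4611 to 4856 barcodes and 26503045 to 31415458 UMIs. The native library shared 4 barcodes with the allograft library and 7 with spleen, of which 1 each was an Inmt-Ces1d cell. Xist had a UMI in 116 of the 119 cells, and 4 Y-linked genes had none.

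The name lung-type fibroblasts, under which the cells were proposed, was only partly borne out by lung genes. Of 26 measured genes of a lung alveolar fibroblast list, 6 were higher by 2-fold or more in the Inmt-Ces1d cells than in the low-marker fibroblasts and none was lower by as much, with a median log2 ratio of 0.37. Over all 8430 genes with 30 or more UMIs in both sets together, 183 (2.17%) were higher by 2-fold or more and 461 (5.47%) lower, 644 in all (7.64%), and the median was -0.04. These counts are sizes of difference and not tests.

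The 6 lung-list genes were Cxcl14, Limch1, Itga8, Fmo2, Npnt and Mettl7a1. Itga8, an integrin subunit whose receptor binds the matrix protein nephronectin, stood at 394 CPM in the Inmt-Ces1d cells and 154 CPM in the low-marker fibroblasts, 2.56-fold higher (2.23 to 2.95). Npnt, the gene of nephronectin, stood at 165 CPM in the Inmt-Ces1d cells and 71.3 CPM in the low-marker fibroblasts, 2.31-fold higher (1.88 to 2.86). A receptor subunit and its ligand were thus both higher in these cells. Limch1, which encodes an activator of non-muscle myosin, stood at 365 CPM in the Inmt-Ces1d cells and 98.9 CPM in the low-marker fibroblasts, 3.69-fold higher (3.14 to 4.36). Fmo2, the flavin monooxygenase of lung, stood at 752 CPM in the Inmt-Ces1d cells and 300.05 CPM in the low-marker fibroblasts, 2.51-fold higher (2.27 to 2.77).

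Other lung genes differed less or were nearly absent. Tcf21, a transcription factor of lung and kidney mesenchyme, stood at 106.6 CPM in the Inmt-Ces1d cells and 69.5 CPM in the low-marker fibroblasts (1.53-fold, 1.21 to 1.94). Tbx4, of the lung mesenchyme, stood at 49.5 CPM in the Inmt-Ces1d cells and 54.8 CPM in the low-marker fibroblasts, and Foxf1 at 86.3 CPM in the Inmt-Ces1d cells and 87.0 CPM in the low-marker fibroblasts. Wnt2, a Wnt ligand of lung mesenchyme, had 1 UMI in the 119 cells, Bmper 1, Slc7a10 3 and Fgfr4 8. Tcf21 and Itga8 were also found in the Pi16 marker cells, at 119 and 326 CPM. The lipid droplet gene Plin2 stood at 27.0 CPM in the Inmt-Ces1d cells and 49.7 CPM in the low-marker fibroblasts.

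Defining genes of alveolar epithelium were at or near 0 in the same cells. Sftpb had no UMI in the 119 cells, nor did Slc34a2 and Lamp3 of type 2 cells, or Rtkn2, Clic5, Akap5 and Cldn18 of type 1 cells. Sftpc had 2 UMIs. The 9 genes of the type 2 list summed to 32.3 CPM in the Inmt-Ces1d cells and 57.1 CPM in the low-marker fibroblasts. The 9 genes of the type 1 list summed to 425 CPM in the Inmt-Ces1d cells, 375 CPM in the 116 cells and 375 CPM in the low-marker fibroblasts. Pdpn and Emp2 held most of that sum, with 280 and 208 of its 566 UMIs in the 119 cells.

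Of 28 measured genes of an adventitial list, 15 were lower by 2-fold or more in the Inmt-Ces1d cells than in the low-marker fibroblasts and 1, Limch1, was higher. Pi16 itself is one of the 15 and is at 0 by the rule. The median was -1.29, and it moved with the choice of cells and depth, to -0.72 in cells thinned to 3000 UMIs, -0.76 when the rule asked for 8 or more marker UMIs, -0.32 when the rule was applied to thinned cells and -0.13 with Pi16 and Ptprc allowed. Ly6a (Sca-1), a surface protein of progenitor cells, stood at 93.8 CPM in the Inmt-Ces1d cells and 439 CPM in the low-marker fibroblasts, 4.66-fold lower (3.88 to 5.69). Ly6c1, of the same family, stood at 6.75 CPM in the Inmt-Ces1d cells and 63.0 CPM in the low-marker fibroblasts, 8.88-fold lower (4.78 to 20.8). Within the low-marker fibroblasts, Ly6c1 stood mostly in the cells with Pi16, at 99.92 CPM against 11.1 CPM in those without. The alarmin gene Il33 stood at 16.5 CPM in the Inmt-Ces1d cells and 78.7 CPM in the low-marker fibroblasts (4.67-fold lower, 3.05 to 7.81), and the transcription factor gene Ebf1, on the pericyte list, at 12.8 CPM in the Inmt-Ces1d cells and 125 CPM in the low-marker fibroblasts (9.55-fold lower, 6.02 to 17.1).

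Other genes of the adventitial list stayed within 2-fold. Igfbp6, which binds insulin-like growth factors, stood at 3512 CPM in the Inmt-Ces1d cells and 2669 CPM in the low-marker fibroblasts. Clec3b stood at 703 CPM in the Inmt-Ces1d cells and 788 CPM in the low-marker fibroblasts, Cd34 at 477 CPM in the Inmt-Ces1d cells and 549 CPM in the low-marker fibroblasts, and Col15a1 at 591 CPM in the Inmt-Ces1d cells and 505 CPM in the low-marker fibroblasts. The cells thus kept genes of the list at levels near those of other fibroblasts while Ly6a, Ly6c1 and Il33 were lower. Dpp4 had 2 UMIs in the 119 cells, both in 1 cell.

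**Figure D2:**
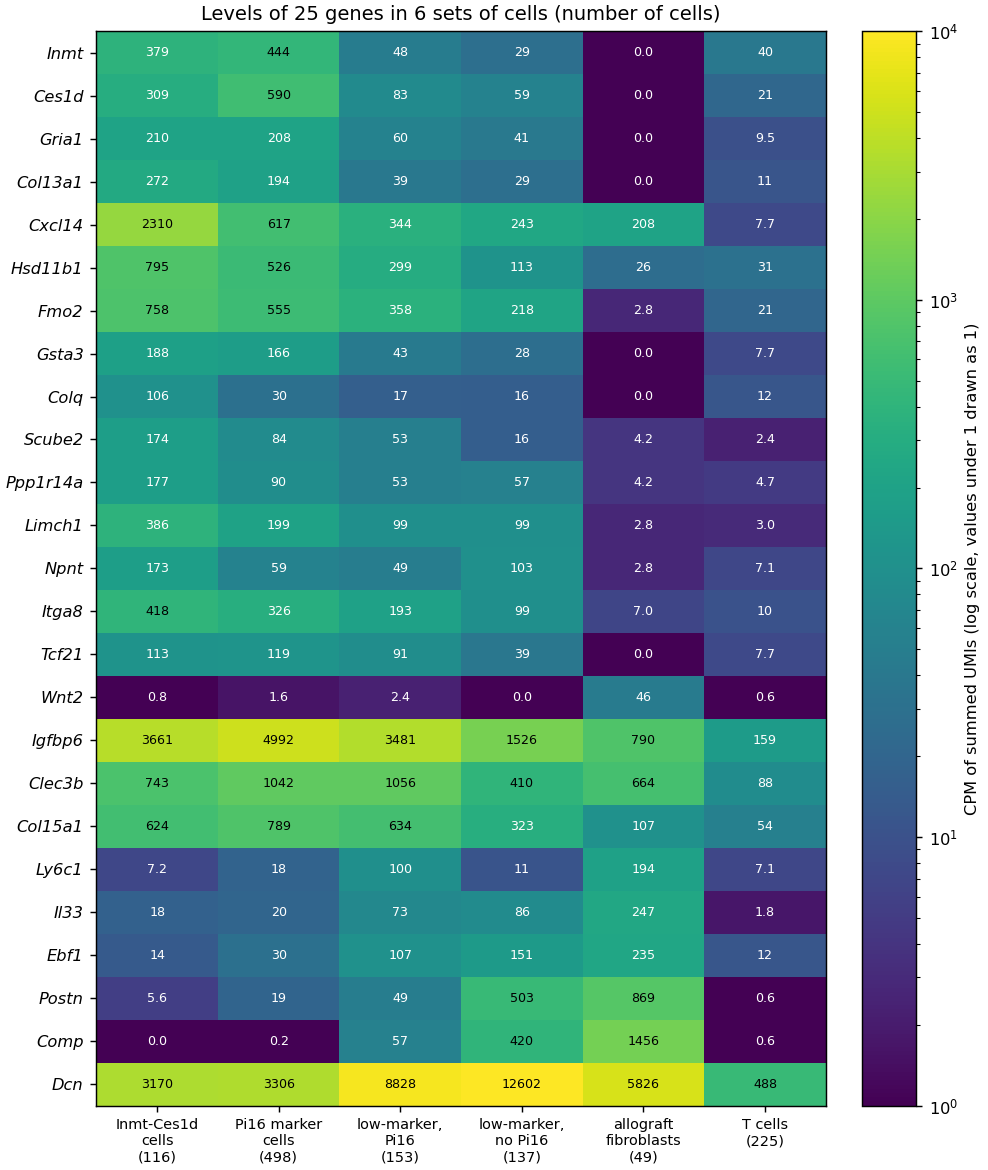
Level of 25 genes (rows, CPM of summed UMIs, log colour scale) in the 116 Inmt-Ces1d cells without epithelial RNA and in 5 other sets of cells (columns, number of cells in parentheses). In the row of Cxcl14 the first column is the highest, at 2310 CPM, while Inmt, Ces1d, Gria1 and Col13a1 are at 0 in the allograft fibroblasts.

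Among the highest ratios over the low-marker fibroblasts were the epithelial genes Krt17, Krt5, Krt15, Aqp3 and Sfn, each found in 2 to 4 of the 119 cells. Krt5 stood at 56.3 CPM in the 119 cells and 1.6 CPM in the 116 cells. Between the 116 cells and the low-marker fibroblasts, 156 of 8290 genes (1.88%) were higher by 2-fold or more and 509 (6.14%) lower, 665 in all (8.02%). High ratios there, beside those of the rule's genes, were those of Cxcl14, Colq, Gsta3, Scube2, Limch1 and Hsd11b1.

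Cxcl14 encodes a chemokine made by many epithelia and fibroblasts. It had 2888 UMIs in 71 of the 119 cells, 2167 CPM in the Inmt-Ces1d cells against 302 CPM in the low-marker fibroblasts, 7.17-fold higher (6.59 to 7.83). It was also 3.51-fold higher (3.34 to 3.69) than the 617 CPM of the Pi16 marker cells. After thinning to 3000 UMIs, 56.8% of the Inmt-Ces1d cells, 16.9% of the low-marker fibroblasts and 0.625% of native T cells, which stand for the level of free RNA, had a Cxcl14 UMI.

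Enzymes of small molecules were among the higher genes. Hsd11b1, which turns inactive corticosteroid into the active hormone, stood at 756 CPM in the Inmt-Ces1d cells and 222 CPM in the low-marker fibroblasts (3.41-fold, 3.06 to 3.81). Gsta3, a glutathione transferase, stood at 200.4 CPM in the Inmt-Ces1d cells and 36.8 CPM in the low-marker fibroblasts (5.42-fold, 4.22 to 7.08). Of 28 measured genes of amine, ester and xenobiotic metabolism, 5 were higher by 2-fold or more (Fmo2, Gsta3, Gsta4, Hsd11b1 and Cbr2) and 1 lower (Aoc3), with a median of 0.30. Cbr2 and Gsta4 lay largely in the cells with epithelial RNA, since Cbr2 stood at 146 CPM in the 119 cells and 7.20 CPM in the 116 cells, and Gsta4 at 60.8 CPM in the 119 cells and 19.2 CPM in the 116 cells. The median was 0.17 in the 116 cells. Against the Pi16 marker cells, 3 of 29 measured genes of the list were higher by 2-fold or more (Gsta4, Aox3 and Cbr2) and none lower. Fmo2, Gsta3 and Hsd11b1 were thus within 2-fold of their levels in the Pi16 marker cells.

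Of 24 measured genes of retinoid and lipid handling, 4 were higher by 2-fold or more than in the low-marker fibroblasts and 3 lower, with a median of -0.10. The 4 were Lrat, which stores retinol as an ester, Rdh10 and Aldh1a1, which oxidise it to retinoic acid, and Crabp1, which binds retinoic acid. Aldh1a1 stood at 179 CPM in the Inmt-Ces1d cells and 69.9 CPM in the low-marker fibroblasts (2.55-fold, 2.07 to 3.15). The lower genes were Fabp5, Cd36 and Cyp26b1, of fatty acid uptake and retinoic acid breakdown. Of the 4 higher genes, Rdh10 and Crabp1 were also higher by 2-fold or more than in the low-marker fibroblasts with Pi16. Against the Pi16 marker cells Crabp1 was the only gene of the list higher by as much, and Stra6 and Cyp26b1 were lower.

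Colq and Scube2 were among the genes with higher levels. Colq, the collagen tail that anchors acetylcholinesterase, stood at 99.8 CPM in the Inmt-Ces1d cells and 16.1 CPM in the low-marker fibroblasts (6.13-fold, 4.24 to 9.27). Scube2, a secreted protein that helps release hedgehog ligands, stood at 169 CPM in the Inmt-Ces1d cells and 37.7 CPM in the low-marker fibroblasts (4.46-fold, 3.46 to 5.83). These genes were found in 51 and 72 of the 119 cells. Bmp7, a bone morphogenetic protein, stood at 166 CPM in the Inmt-Ces1d cells and 68.1 CPM in the low-marker fibroblasts (2.43-fold, 1.97 to 3.02), and was the single gene of 26 measured in its pathway that was higher by 2-fold or more, while 4 were lower, among them Gdf10. Gdf10 was instead higher by 2-fold or more than in the Pi16 marker cells. Of 20 measured growth factor receptor genes 1, Fgfr3, was higher than in the low-marker fibroblasts and 1, Gfra1, lower. Of 14 receptors for hormones, amines and peptides 1, S1pr3, was higher and none lower by 2-fold or more.

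Of 35 measured growth factor genes, 5 were higher by 2-fold or more (Angpt2, Nrg1, Ereg, Gdnf and Ntf3) and 11 lower, with a median of -0.52. Nrg1, a ligand of ErbB receptors, stood at 51.0 CPM in the 119 cells, 35.2 CPM in the 116 cells and 20.2 CPM in the low-marker fibroblasts, so that in the 116 cells 4 of the 35 were higher by 2-fold or more. Gdnf, a neurotrophic factor, stood at 81.8 CPM in the Inmt-Ces1d cells and 35.9 CPM in the low-marker fibroblasts (2.27-fold, 1.69 to 3.09). Ptn, the heparin-binding growth factor pleiotrophin, stood at 216 CPM in the Inmt-Ces1d cells and 923 CPM in the low-marker fibroblasts (4.26-fold lower, 3.77 to 4.85). It had a UMI in 20.3% of the thinned Inmt-Ces1d cells. The direction differed against the Pi16 marker cells, where Ptn, Gdf10, Angptl1 and Ntf3 were higher by 2-fold or more and Pgf and Bdnf lower. Of 32 Wnt pathway genes 2, Wnt4 and Notum, were higher by 2-fold or more and 4 lower, among them the Wnt antagonist Sfrp1 at 14.3 CPM in the Inmt-Ces1d cells and 118 CPM in the low-marker fibroblasts. Wnt4 stood at 61.5 CPM in the 119 cells and 30.4 CPM in the 116 cells.

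Of 31 measured regulators of lung mesenchyme, Foxf2 was higher by 2-fold or more, at 36.0 CPM in the Inmt-Ces1d cells and 13.8 CPM in the low-marker fibroblasts (2.59-fold, 1.62 to 4.26). The 6 lower ones were Tbx5, Meox1, Prrx1, Prrx2, Nr2f1 and Barx1. Prrx1, a homeobox gene of mesenchyme, stood at 67.5 CPM in the Inmt-Ces1d cells and 176 CPM in the low-marker fibroblasts (2.60-fold lower, 2.07 to 3.32).

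Of 7 measured genes of ionotropic glutamate receptors and their partners 1, Gria1, was higher by 2-fold or more than in the low-marker fibroblasts, which the choice of cells fixes, and the median was -0.08. Gria3, another AMPA subunit, stood at 50.3 CPM in the Inmt-Ces1d cells and 26.7 CPM in the low-marker fibroblasts (1.88-fold, 1.31 to 2.73), and was higher by 2-fold or more against the low-marker fibroblasts without Pi16. Among carboxylesterases the 119 cells held 478 UMIs of Ces1d, 69 of Ces1f, 31 of Ces2g, 3 of Ces1e and 1 of Ces1g. The Ces1 genes are close copies, so reads may have been split between them.

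None of 10 measured fibrillar collagen genes was higher by 2-fold or more, and the 3 lower ones, Col2a1, Col11a1 and Col11a2, are collagens of cartilage. Col6a1, a chain of a microfibril-forming collagen, stood at 2584 CPM in the Inmt-Ces1d cells and 1507 CPM in the low-marker fibroblasts (1.71-fold, 1.63 to 1.80). Of 41 measured genes of small proteoglycans and matricellular proteins 1, Thbs1, was higher by 2-fold or more and 12 were lower, among them Dcn, Fmod, Postn, Fn1 and Comp, with a median of -0.19. Thbs1, the gene of thrombospondin 1, stood at 2933 CPM in the Inmt-Ces1d cells and 1297 CPM in the low-marker fibroblasts (2.26-fold, 2.15 to 2.37). Efemp1, a fibulin, was the single gene of 18 in the elastic fibre list that was higher by 2-fold or more, at 767 CPM in the Inmt-Ces1d cells and 292 CPM in the low-marker fibroblasts, and 3 were lower (Emilin2, Ltbp2 and Fbln7). Dcn, which is part of the rule, stood at 3026 CPM in the Inmt-Ces1d cells and 10394 CPM in the low-marker fibroblasts, 3.43-fold lower (3.32 to 3.55).

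Many of the lowest ratios were of cartilage and nerve sheath genes. Of 8 measured chondrocyte genes 7 were lower by 2-fold or more, and of the 10 listed only Sox9 had a UMI in the 119 cells, at 101 CPM in the Inmt-Ces1d cells and 115 CPM in the low-marker fibroblasts. Comp had no UMI in the 119 cells against 207.5 CPM in the low-marker fibroblasts, at least 92.2-fold lower when set against 3 counts. All 5 measured Schwann genes were lower by 2-fold or more. Postn, of fibrotic matrix, had 7 UMIs in 1 of the 119 cells and stood at 237 CPM in the low-marker fibroblasts.

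Most of this cartilage and Schwann RNA lay in the low-marker fibroblasts without Pi16. The chondrocyte list summed to 101 CPM in the Inmt-Ces1d cells, 157 CPM in the low-marker fibroblasts with Pi16 and 986 CPM in those without. The Schwann list summed to 11.3 CPM in the Inmt-Ces1d cells, 8.65 CPM in the low-marker fibroblasts with Pi16 and 713 CPM in those without. The part of these cells in the ratios over all 290 was not tested.

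The subsets of the low-marker fibroblasts gave different adventitial medians and like lung medians. Against the 153 with Pi16, 188 of 7378 genes (2.55%) were higher by 2-fold or more and 195 (2.64%) lower, 383 in all (5.19%). Against the 137 without Pi16, 281 of 7117 (3.95%) were higher and 470 (6.6%) lower, 751 in all (10.6%). The adventitial median was -1.38 against the cells with Pi16 and 0.02 against the cells without. The lung alveolar median was 0.40 against the cells with Pi16 and 0.39 against the cells without. The lung genes apart by 2-fold or more differed. Against the cells with Pi16, 6 were higher, Npnt among them, and none lower. Against the cells without, 9 were higher, Tcf21 among them but not Npnt, and 2 lower, Plin2 and Scn7a. As the rule asks for no Pi16, the adventitial values are not independent of it.

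Of 25 measured chemokine and cytokine genes 2 were higher by 2-fold or more, Cxcl14 and Lif, and 10 lower. The median was -0.49, and -0.02 when cells with Epcam, Pecam1, Cdh5 or Csf1r were left out of both sets. It was -0.03 when the rule asked for 3 or more marker UMIs. Il6 stood at 129.8 CPM in the Inmt-Ces1d cells and 297 CPM in the low-marker fibroblasts (2.29-fold lower, 1.93 to 2.72). Ccl7, a monocyte chemokine, stood at 86.3 CPM in the Inmt-Ces1d cells and 218 CPM in the low-marker fibroblasts (2.51-fold lower, 2.05 to 3.12). Of 14 complement genes 1 was higher by 2-fold or more and 7 lower, among them C1qa, C1qb and C1qc, which macrophages make. The complement median was -0.95, and 0.03 when cells with Epcam, Pecam1, Cdh5 or Csf1r were left out of both sets.

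Macrophage RNA differed beside these genes. The 12 genes of the macrophage list summed to 90.1 CPM in the Inmt-Ces1d cells and 301 CPM in the low-marker fibroblasts, and Ear2, Marco and Siglecf were at 0 in the 119 cells. The median was 1 UMI of the list per cell in both sets. Cells with 5 or more numbered 3 of the 119 and 10 of the 290, and a single low-marker fibroblast held 141 of that set's 653 UMIs. The class II genes H2-Aa, H2-Ab1, H2-Eb1 and Cd74 were lower by 2-fold or more, Cd74 at 159.8 CPM in the Inmt-Ces1d cells and 519.6 CPM in the low-marker fibroblasts, while class I H2-K1 stood at 914 CPM in the Inmt-Ces1d cells and 780.0 CPM in the low-marker fibroblasts. The part of macrophage RNA in these differences was not tested. None of 29 immediate early and heat shock genes, which respond to tissue dissociation, was 2-fold or more apart, and their median was 0.07.

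**Figure D3:**
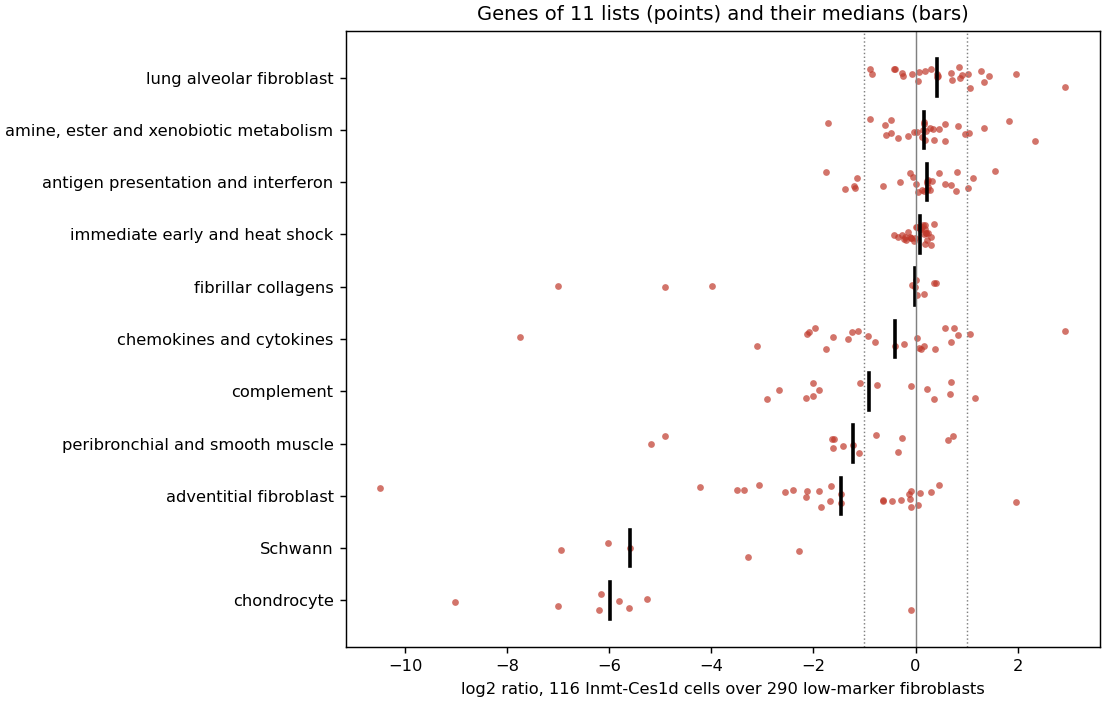
log2 ratio of each measured gene (points) of 11 lists in the 116 Inmt-Ces1d cells over the 290 low-marker fibroblasts, with list medians (bars) and 2-fold lines (dotted). The lung alveolar list has no gene below -1, the immediate early list none beyond 1 in either direction, and the chondrocyte and Schwann medians lie lowest.

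The set nearest by the rule was the 498 Pi16 marker cells, a comparison added after the data were seen. Against them 242 of 9762 genes (2.48%) were higher by 2-fold or more in the 119 cells and 207 (2.12%) lower, 449 in all (4.6%). Cells with epithelial RNA were kept in both sets. In the Pi16 marker cells, 11871 of 12285 UMIs of the airway secretory genes lay in a single cell. Krt17, Krt5, Aqp3, Krt15 and Sfn were among the 6 highest ratios, and Scgb3a1, Scgb1a1 and Bpifa1 among the 6 lowest. Of 26 lung-list genes 4 were higher by 2-fold or more, Npnt, Meox2, Nebl and Cxcl14, and none lower. Npnt stood at 165 CPM in the Inmt-Ces1d cells and 59.5 CPM in the Pi16 marker cells, and Colq at 99.8 CPM in the Inmt-Ces1d cells and 30.5 CPM in the Pi16 marker cells. Aldh1a1, Bmp7, Efemp1, Foxf2, Gdnf and Thbs1, higher by 2-fold or more than in the low-marker fibroblasts, were within 2-fold of the Pi16 marker cells.

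Few genes set the cells apart from all native fibroblast sets at once. In the 116 cells, 9 of 6733 genes (0.134%) were higher by 2-fold or more than in each of the Pi16 marker cells and the low-marker fibroblasts with and without Pi16. They were Cxcl14, Cdo1, Scube2, Colq, Ptges, Pde5a, Crabp1, Ccr7 and Tbc1d16. Of the 40 Ccr7 UMIs 95% lay in 1 cell, and of the 42 Crabp1 UMIs 57.1%. Cdo1, a cysteine dioxygenase, was found in 82 of the 116 cells, at 249.6 CPM there, against 106 CPM in the Pi16 marker cells and 96.0 and 111 CPM in the low-marker fibroblasts with and without Pi16. Of the 20 genes (0.297%) lower by 2-fold or more than in all 3 sets, Aspn, a small proteoglycan of the matrix, stood at 83.99 CPM in the 116 cells, against 217 CPM in the Pi16 marker cells and 172 and 368 CPM in the low-marker fibroblasts with and without Pi16.

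The Inmt-Ces1d cells were not uniform, and their Cxcl14 counts were far apart. Of the 116 cells, 66 held 5 or more Cxcl14 UMIs, 5 held 1 to 4 and 45 held none. Cells with 5 or more made up 55.5% of the 119 Inmt-Ces1d cells (46.1 to 64.6). The share was 23.3% in the Pi16 marker cells (19.6 to 27.3), 15.03% and 6.57% in the low-marker fibroblasts with and without Pi16, and 0.444% in native T cells. The median depth was 12545 UMIs in the 66 cells and 8519 UMIs in the 45 cells.

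**Figure D4:**
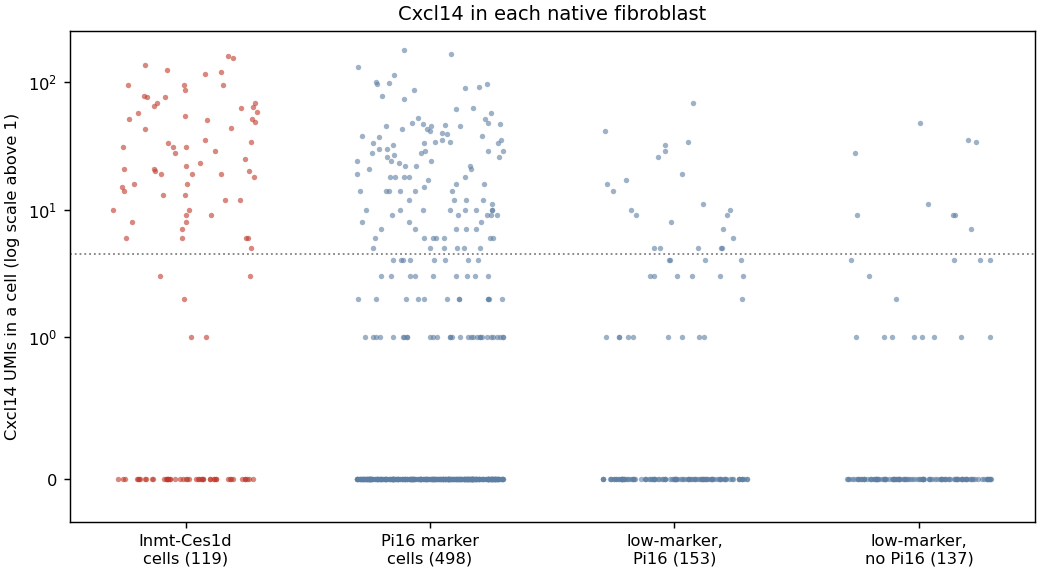
Cxcl14 UMIs in each native fibroblast (points, log scale above 1) of 4 sets (number of cells in parentheses), with the limit of 5 UMIs dotted. In the 119 Inmt-Ces1d cells, at the left, 66 cells lie above the line and 48 lie at 0, with 5 between.

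This split was chosen after the data were seen. Between the 66 and the 45 cells 157 of 4773 genes (3.29%) were higher by 2-fold or more in the cells with Cxcl14 and 188 (3.94%) lower. Limch1 stood at 531 CPM in the cells with Cxcl14 and 136 CPM in the cells without (3.86-fold, 2.94 to 5.24). Itih5, which encodes a hyaluronan-binding inhibitor chain, stood at 1009 CPM in the cells with Cxcl14 and 202 CPM in the cells without (4.96-fold, 3.98 to 6.33). Colq stood at 151 CPM in the cells with Cxcl14 and 19.5 CPM in the cells without (7.34-fold, 3.81 to 18.4). It was found in 45 of the 66 cells with Cxcl14 and in 4 of the 45 cells without. The higher Colq level of the whole group thus lay mostly in the cells with Cxcl14. Tnc, the gene of tenascin C, had 55 UMIs in 17 of the 66 cells and 1 UMI in the 45 cells. Npnt stood at 222 CPM in the cells with Cxcl14 and 85.3 CPM in the cells without, and Itga8 at 513 CPM in the cells with Cxcl14 and 234 CPM in the cells without. Genes of the lung list did not share 1 direction, since Mfap4, a microfibril gene of the list, stood at 485 CPM in the cells with Cxcl14 and 1172 CPM in the cells without (2.42-fold lower, 2.11 to 2.77).

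The 45 cells without Cxcl14 carried another group of genes. Wif1, a secreted Wnt inhibitor, stood at 11.5 CPM in 3 of the 66 cells and 353 CPM in 22 of the 45 cells, 29.1-fold lower with Cxcl14 (15.7 to 68.3). Apoe, the apolipoprotein E gene, stood at 182 CPM in the cells with Cxcl14 and 2460.4 CPM in the cells without, 13.5-fold lower (11.3 to 16.2). Gas1, a hedgehog co-receptor, stood at 8.97 CPM in the cells with Cxcl14 and 146 CPM in the cells without, 15.3-fold lower (7.44 to 42.2). Apoe was found in 44 of the 45 cells and also in 43 of the 66, and Gas1 in 23 of the 45 and 7 of the 66. A single cell held 23.1% of the Apoe UMIs of the 45 cells. Ces1f, a close copy of Ces1d, had 2 UMIs in the 66 cells and 67 in 17 of the 45 cells, and the aldehyde oxidase gene Aox3 had 2 UMIs in the 66 cells and 49 in 19 of the 45 cells. Cyp2f2 had none in the 66 cells and 61 UMIs in 9 of the 45 cells, at least 38.6-fold lower when set against 3 counts.

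The rule's 4 genes did not share 1 direction across this divide. Inmt stood at 404 CPM in the cells with Cxcl14 and 380.0 CPM in the cells without (1.06-fold, 0.874 to 1.30). Gria1 stood at 206 CPM in the cells with Cxcl14 and 219 CPM in the cells without (0.939-fold, 0.723 to 1.23). Ces1d was 1.88-fold lower with Cxcl14 (1.52 to 2.32) and Col13a1 2.58-fold higher (1.91 to 3.60). Tcf21 stood at 118 CPM in the cells with Cxcl14 and 112 CPM in the cells without.

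The same divide was measured in the Pi16 marker cells, which the rule had removed. After cells with epithelial RNA were left out, 116 held 5 or more Cxcl14 UMIs and 322 held none. Limch1 was 3.14-fold higher with Cxcl14 (2.78 to 3.55), Itih5 3.66-fold (3.36 to 3.99) and Colq 3.56-fold (2.57 to 4.996). Wif1 was 21.0-fold lower with Cxcl14 (9.06 to 87.1), Gas1 7.08-fold (4.61 to 12.01) and Apoe 4.85-fold (4.25 to 5.57). The median depth was 13890 UMIs in the 116 Pi16 marker cells with Cxcl14 and 11603 UMIs in the 322 without. Of the 14 genes with the highest and lowest ratios in the Inmt-Ces1d cells and 30 or more UMIs here, 14 lay on the same side and 12 of them by 2-fold or more. The share over all genes is not given, so these counts describe the 14 genes only. One of them, Prg4, had all its 52 UMIs of the Inmt-Ces1d cells without Cxcl14 in 1 cell. Inmt, which is not one of the 14, was 2.20-fold lower with Cxcl14 in the Pi16 marker cells. Both sets come from 1 library, so this is no replicate.

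**Figure D5:**
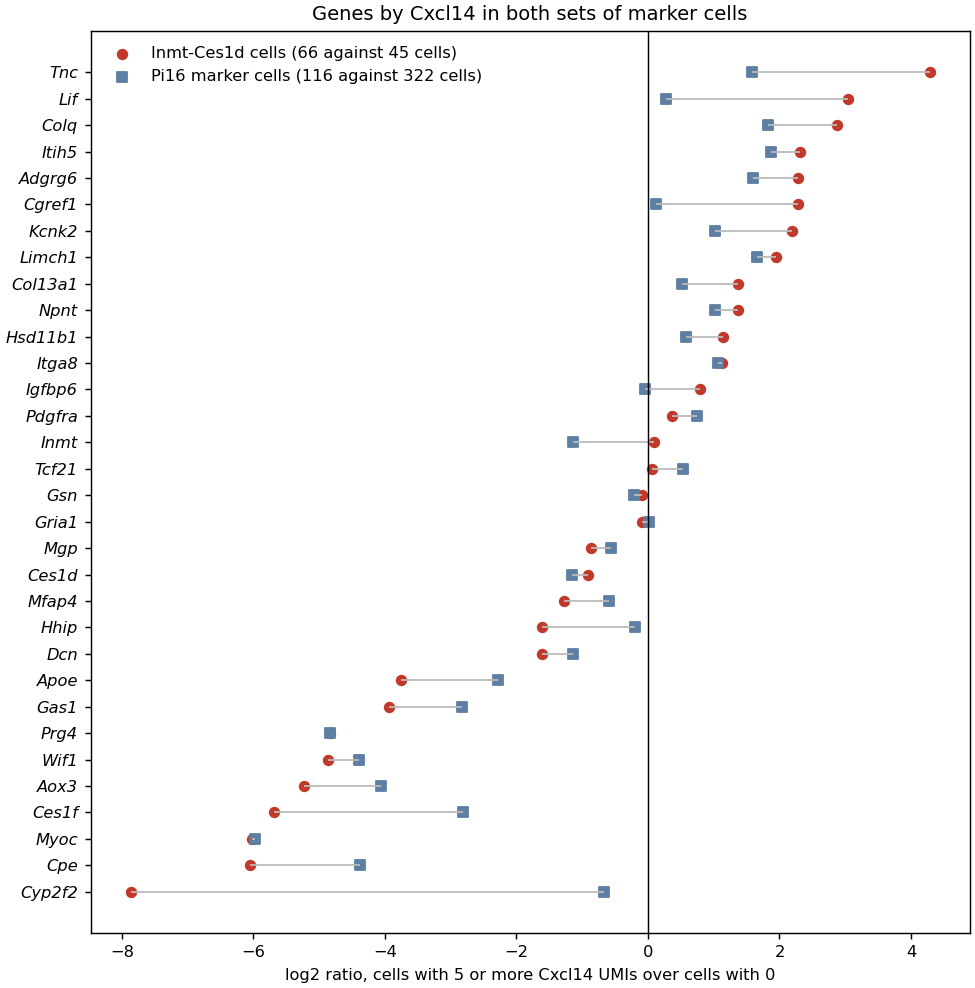
log2 ratio of 32 genes in cells with 5 or more Cxcl14 UMIs over cells with 0, in the Inmt-Ces1d cells (circles) and in the Pi16 marker cells (squares), with 0.5 UMI added to each sum. Limch1, Itih5 and Colq lie to the right in both sets and Wif1, Gas1, Aox3 and Myoc to the left in both, while Inmt lies near 0 in the circles and left of 0 in the squares.

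The most variable genes among the thinned Inmt-Ces1d cells were Mgp, Dcn, Thbs4, Apoe, Ptn, Ccl2, Cyp2f2, Hspb1, Tagln and Gsn. Their variance-to-mean ratios ran from 68.2 for Mgp to 15.7 for Gsn, against a median of 1.11 over 2122 genes. Mgp, which inhibits calcification, was found in 99.2% of the thinned cells, and Dcn, a rule gene, in 66.1% with up to 125 UMIs in a cell. Thbs4 was found in 1.69% of them.

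No allograft cell met the rule. The allograft library held 49 fibroblasts by the collagen and decorin UMIs and the absence of Ptprc, and none met the rule, which allows a share of up to 6.12%. Inmt, Ces1d, Gria1 and Col13a1 had no UMI in the whole allograft library. The 49 cells had a median of 14026 UMIs, more than the 11389 UMIs of the Inmt-Ces1d cells.

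Against the 49 allograft fibroblasts, 720 of 6852 genes (10.5%) were higher by 2-fold or more in the Inmt-Ces1d cells and 732 (10.7%) lower, 1452 in all (21.2%). Of 28 metabolism genes 20 were higher by 2-fold or more and 1 lower. Fmo2 stood at 752 CPM in the Inmt-Ces1d cells and 2.79 CPM in the allograft fibroblasts, and the glutathione transferase Gstm1 at 453 CPM in the Inmt-Ces1d cells and 62.7 CPM in the allograft fibroblasts. Of 27 lung-list genes 18 were higher by 2-fold or more and 4 lower, one of them Wnt2 at 1 UMI in the Inmt-Ces1d cells and 46.0 CPM in the allograft fibroblasts.

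Matrix and immune genes lay on the other side. Of 10 fibrillar collagens 9 were lower by 2-fold or more in the Inmt-Ces1d cells, Col3a1 at 3159 CPM in the Inmt-Ces1d cells and 10499 CPM in the allograft fibroblasts (3.32-fold lower, 3.20 to 3.45). Of 28 antigen presentation and interferon genes 15 were lower by 2-fold or more, Cd74 at 159.8 CPM in the Inmt-Ces1d cells and 2241 CPM in the allograft fibroblasts. The allograft fibroblasts also held cartilage genes, and all 9 measured chondrocyte genes were lower in the Inmt-Ces1d cells, Col2a1 with no UMI in the Inmt-Ces1d cells and 3977 CPM in the allograft fibroblasts. Graft, library and handling cannot be told apart with 1 pooled library per source.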

How the data were processed

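The deposited values are raw UMI counts per gene and barcode, 1 matrix per source. Cell Ranger 3.1.0 made them, per the file headers, and the submitters' processing notes name mm10 as the build. The annotation and further filters are not given in the sources used here. From these counts, cells were kept and chosen by the thresholds given above, UMIs were summed per set and scaled to CPM, and ratios were computed with 0.5 UMI added to each sum. Ratio intervals are exact conditional binomial, shares exact Clopper-Pearson, limits beside 0 use 3 counts (Python 3.11.15, numpy 2.4.6, scipy 1.17.1). Genes needed 30 UMIs over both sets. Alternatives for filters, rule, depth, scaling and minimum were computed. Genes named are the 15 highest and 15 lowest ratios (6 against the other sets) at 50 CPM and 30 UMIs or more in the higher set, the extreme members of 42 gene lists, and 10 variable genes. Other genes were named after their values were seen, among them those beside Cxcl14. The cells and lists were chosen with earlier results of these data known. Positions are from GENCODE M21, in which 31011 of 31053 identifiers were found. Scrublet (scanpy 1.11.5) marked 8 of 4156 cells as doublets (0.193%, with 3.33% expected), none an Inmt-Ces1d cell, so doublets were largely left in. The computation was tested on simulated data.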

Additional observations from a re-analysis of the deposited data

Results flagged for a closer look

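Ces1d had a signal in a library outside the comparisons. The spleen library, in which no cell met the collagen and decorin threshold, held 36 Ces1d UMIs in 22 barcodes, up to 11 in a barcode, while the allograft library held none. The other rule genes, Inmt, Gria1 and Col13a1, had no UMI in spleen, nor had the close copies Ces1e, Ces1f and Ces1g.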

How the results depend on the processing

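The limits are first those of the choice of cells. With Pi16 and Ptprc allowed, 672 cells met the rule, and with the rule applied to cells thinned to 3000 UMIs, 66 did, against 119. Of the 644 genes 2-fold or more apart from the low-marker fibroblasts, 180 were apart in the same direction with the thinned rule, 352 with Pi16 and Ptprc allowed and 420 without cells holding Epcam, Pecam1, Cdh5 or Csf1r. Counts of genes move with the minimum and with depth. Against the low-marker fibroblasts, genes higher and lower numbered 83 and 144 at a minimum of 100 UMIs, 408 and 998 at 10, and 105 and 233 in cells thinned to 3000 UMIs. Against those with Pi16 they numbered 63 and 62, 475 and 570, and 68 and 91 in the same settings, 287 and 340 with Pi16 and Ptprc allowed, and 122 and 323 with the thinned rule. Against those without Pi16 they numbered 124 and 132, 555 and 1152, and 152 and 220, then 510 and 1131 with Pi16 and Ptprc allowed, and 93 higher with the thinned rule. The cause of the changes was not tested, but a higher minimum or thinning leaves fewer genes to count. Of 118 alternative values of these counts and of the number of cells, 91 stayed within 1.5 times. The complement median of -0.95 became 0.0308 without cells holding Epcam, Pecam1, Cdh5 or Csf1r; the lung alveolar median ran between 0.24 and 0.62 and the adventitial median between -1.49 and -0.13 over 18 alternatives. No paired analysis was possible because each source is 1 pooled library.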
